A study of Mus musculus with 12 samples.

Results

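NF-kB is a small family of transcription factors that blood cells use to answer inflammatory cytokines and microbial products. The genes described here are its 5 subunits (Nfkb1, Nfkb2, Rel, Rela and Relb), 4 proteins of the IkB family (Nfkbia, Nfkbie, Nfkbiz and Bcl3) and the ubiquitin-editing enzyme Tnfaip3, also known as A20. They were chosen by gene symbol, as the rows of both deposited tables whose symbol equals one of these names, and 10 of 24533 genes met that rule. All 10 had an adjusted p-value in both tables.

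RNA of C57BL/6 mouse bone marrow was sequenced in 12 libraries, 3 in each of 4 groups. Lineage-negative cells of marrow (LinNeg) and LSK cells, which by definition carry Sca-1 and c-Kit, were each sampled under the genotype labels WT and U2af1KO. U2af1 is a splicing factor gene whose product reads the end of an intron. The LSK libraries are also labelled BMT, an abbreviation left unexplained, and the sources used here give no age, sex, Cre driver or mode of deletion. No label ties the 3 libraries of a group to different animals. The p-values therefore reflect spread between libraries, and how much of it is spread between animals is unknown.

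The values are the authors' own comparisons of KO with WT within each population. Per gene they give 1 mean of normalized counts, 1 log2 fold change (KO over WT throughout) and its standard error (SE), so the value in each library was not analysed here and the depth per library is unknown. The level under each label was worked out from these and has no SD of its own. A gene is said to have risen or fallen when the authors' DESeq2 adjusted p is under 0.05, and intervals are 95% intervals from the SE.

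In resting cells NF-kB dimers are held in the cytoplasm by IkB proteins. Receptors of the TNF, interleukin-1 and Toll-like families switch on the IKK kinase complex, which marks the inhibitors for destruction and frees the dimers. In the slower, alternative branch the kinase Map3k14 (NIK) triggers processing of the Nfkb2 product, which pairs with Relb. Several IkB genes and Tnfaip3 are themselves switched on by NF-kB and close the loop, while Nfkbiz and Bcl3 encode IkB proteins that act in the nucleus. In blood stem cells the pathway is known for its part in survival and in the response to inflammation.

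RefSeq promoter windows (build GRCm38.p6, 250 bases before to 50 after a transcript start) were held for 7 of the 10 genes. Those for Nfkb1, Relb and Nfkbiz were not used here. The 10-base kB motif, searched on both strands, matched in 6 of the 7, namely Nfkb2, Rel, Nfkbia, Nfkbie, Bcl3 and Tnfaip3, and in none of the windows of Rela. Over all genes with a window it matched in 2581 of 27025, or 9.55%, and over the listed inflammatory targets of the pathway in 13 of 26. A match is a run of letters and does not show binding. The stretches show 1 match for each of Rel, Nfkb2, Nfkbia, Nfkbie, Bcl3 and Tnfaip3. Each is written 5' to 3' on the gene's own strand, and distances are to the RefSeq transcript start of its window. Capitals mark the motif on either strand and include overlapping matches. The stretches of Nfkb2 and Bcl3 lie within annotated exons.
Rel (chr11:23771016-23771096, minus strand, match 92 bases before the start): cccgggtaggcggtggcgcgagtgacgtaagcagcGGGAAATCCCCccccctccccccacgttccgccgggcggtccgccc
Nfkb2 (chr19:46304689-46304718, plus strand, 39 bases before the start): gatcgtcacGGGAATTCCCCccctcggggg
Nfkbia (chr12:55492648-55492711, minus strand, 29 bases before the start): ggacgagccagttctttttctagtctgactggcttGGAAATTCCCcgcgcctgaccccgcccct
Nfkbie (chr17:45555559-45555638, plus strand, 106 bases before the start): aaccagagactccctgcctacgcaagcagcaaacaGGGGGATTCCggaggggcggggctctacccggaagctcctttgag
Bcl3 (chr7:19822734-19822763, minus strand, 3 bases after the start): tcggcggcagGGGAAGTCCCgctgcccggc
Tnfaip3 (chr10:19015411-19015457, minus strand, 12 bases before the start): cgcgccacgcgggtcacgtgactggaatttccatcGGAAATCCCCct

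In LSK cells 9 of the 10 genes fell in libraries labelled KO and 0 rose, with Rela missing the threshold. Among all 16482 genes tested in LSK, 29.2% fell, 32.4% rose and 61.6% were called in either direction. Among those with a mean of at least 100, as all 10 genes have, 36.4% fell and 77.2% were called. The median log2 fold change of the 10 genes was -0.69 against 0.04 over all genes tested. In LinNeg cells 4 of the 10 fell (Nfkb1, Rel, Nfkbia and Nfkbie), 1 rose (Nfkbiz) and 5 were not called. Of the 17108 genes tested in LinNeg, 19.3% fell, 22.1% rose and 41.4% were called in either direction, and of those with a mean of at least 100, 26.8% fell and 51.8% were called. The share of members called in LinNeg was therefore near the background. The median log2 fold change of the members there was -0.50, against 0.16 over all genes tested and -0.02 over those with a mean of at least 100. With at least a 2-fold change also asked for, 2 of the 10 genes were called in LinNeg, Rel lower and Nfkbiz higher, where 23.6% of all genes were called, 9.59% lower and 14% higher. In LSK the same rule called Rel, Nfkbie and Nfkbiz, all lower, where it called 22.6% of all genes, 12.9% lower.

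**Figure D1:**
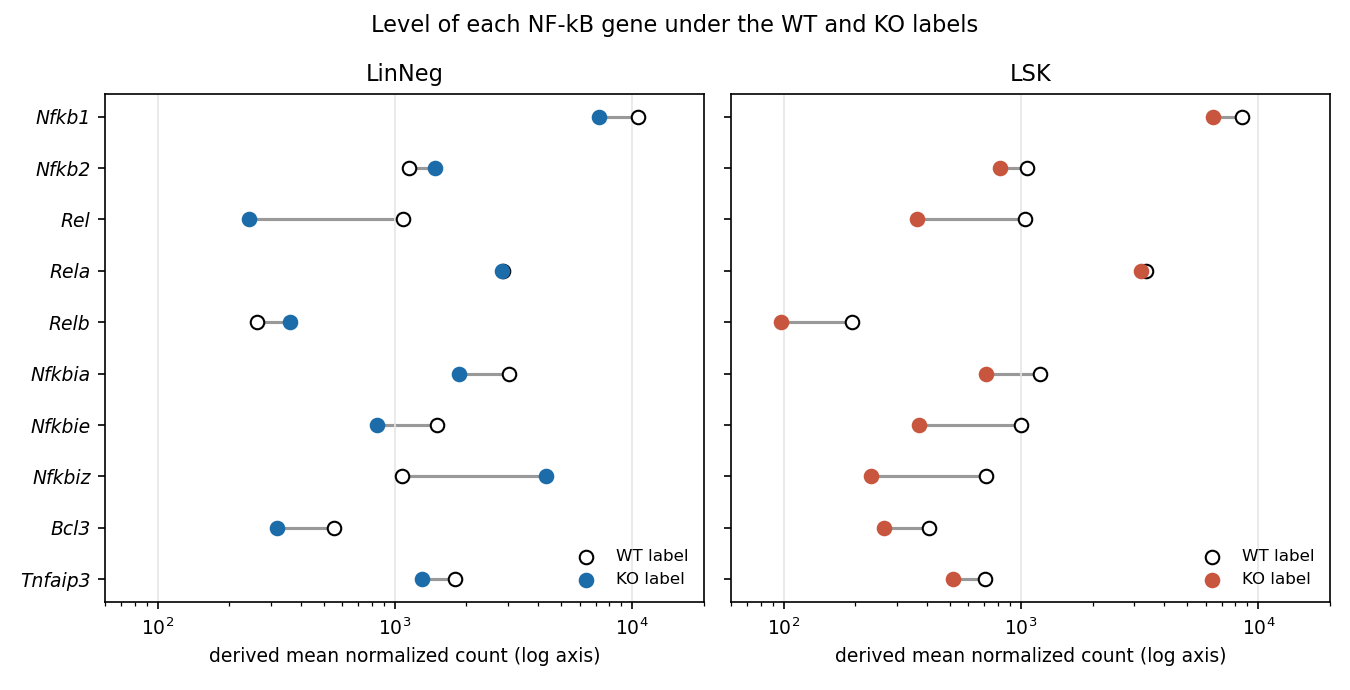
Derived mean normalized count of each gene (horizontal, log axis) under the WT label (open circles) and the KO label (filled circles) in LinNeg and LSK; a grey line joins both labels of a gene. In LSK all KO circles lie left of the WT circles, with those of Rela nearly touching, and in LinNeg Nfkbiz moves right from 1070 to 4342 while Rel moves left from 1085 to 242.

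Rel encodes c-Rel, a subunit with a transactivation domain that is known mostly from lymphoid and myeloid cells. Its locus (ENSMUSG00000020275.9 in the GENCODE M21 annotation of mm10, as for all positions of genes here) is chromosome 11, 23736847 to 23770970, minus strand. From the authors' deposited table for LinNeg, its derived level was 1085 normalized counts under WT and 242 under KO, a log2 fold change of -2.17 (SE 0.22, DESeq2 adjusted p = 3.46e-22). In the authors' deposited table for LSK the derived levels were 1040 and 363, a log2 fold change of -1.52 (SE 0.14, DESeq2 adjusted p = 2.73e-26). KO libraries thus held 22.3% of the WT level in LinNeg (interval 16.6% to 29.9%) and 34.9% in LSK (interval 28.8% to 42.2%). No other of the 10 genes fell by at least 2-fold in both tables. In LinNeg only 3.72% of all genes tested had a lower fold change than Rel, and in LSK 11.1% did.

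Rela encodes p65, the main activating subunit, and its transcript moved least. Its derived level was 2840 normalized counts under WT and 2821 under KO in LinNeg, from the authors' deposited table, with a log2 fold change of -0.01 (SE 0.15, DESeq2 adjusted p = 0.969). The LSK values in the authors' deposited table gave 3375 under WT and 3194 under KO, a log2 fold change of -0.08 (SE 0.05, DESeq2 adjusted p = 0.2). The intervals allow a KO level between 80.6% and 122% of WT in LinNeg and between 87.9% and 102% in LSK. In LSK the call changed when fold changes were centred on the median gene, where Rela stood at -0.12 with an adjusted p of 0.042 by the Wald test. Centred on the median of genes with a mean of at least 100 it stayed uncalled, with an adjusted p of 0.0647 by the same DESeq2-based Wald test. Rela (ENSMUSG00000024927.8) lies on chromosome 19 from 5637483 to 5648130, plus strand.

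Nfkb1 encodes p105, the precursor of p50, which is the usual partner of p65. It had the highest mean normalized count of the 10 genes in both populations, without correction for exon length. From the authors' deposited table, its derived level fell from 10546 to 7232 normalized counts in LinNeg, a log2 fold change of -0.54 (SE 0.17, DESeq2 adjusted p = 0.00371). It fell in LSK from 8562 to 6414 in the authors' deposited table, a log2 fold change of -0.42 (SE 0.06, DESeq2 adjusted p = 1.33e-11). These are KO levels of 68.6% and 74.9% of WT. The gene (ENSMUSG00000028163.17) spans chromosome 3 from 135584655 to 135691547, minus strand.

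Nfkb2 and Relb, the pair of the alternative branch, fell in LSK and were not called in LinNeg. Relb went from 194 to 97.4 normalized counts in the authors' deposited table for LSK, a log2 fold change of -0.99 (SE 0.22, DESeq2 adjusted p = 1.94e-05). Nfkb2 went from 1059 to 816 in the authors' deposited table for LSK, a log2 fold change of -0.38 (SE 0.09, DESeq2 adjusted p = 0.00011). Both point estimates were above 0 in the authors' deposited table for LinNeg, at 0.46 (SE 0.44, DESeq2 adjusted p = 0.428) for Relb and 0.36 (SE 0.24, DESeq2 adjusted p = 0.225) for Nfkb2. Their LinNeg intervals ran from 0.755 to 2.50 and from 0.929 to 1.78 times the WT level. Relb (ENSMUSG00000002983.17) lies on chromosome 7 from 19606217 to 19629438, minus strand, and Nfkb2 (ENSMUSG00000025225.15) on chromosome 19 from 46304320 to 46312385, plus strand. Exons of Nfkb2 overlap those of Psd and of an lncRNA on the opposite strand. Whether counting used strand is not given in the sources used here, so reads from these stretches cannot be told apart.

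**Figure D2:**
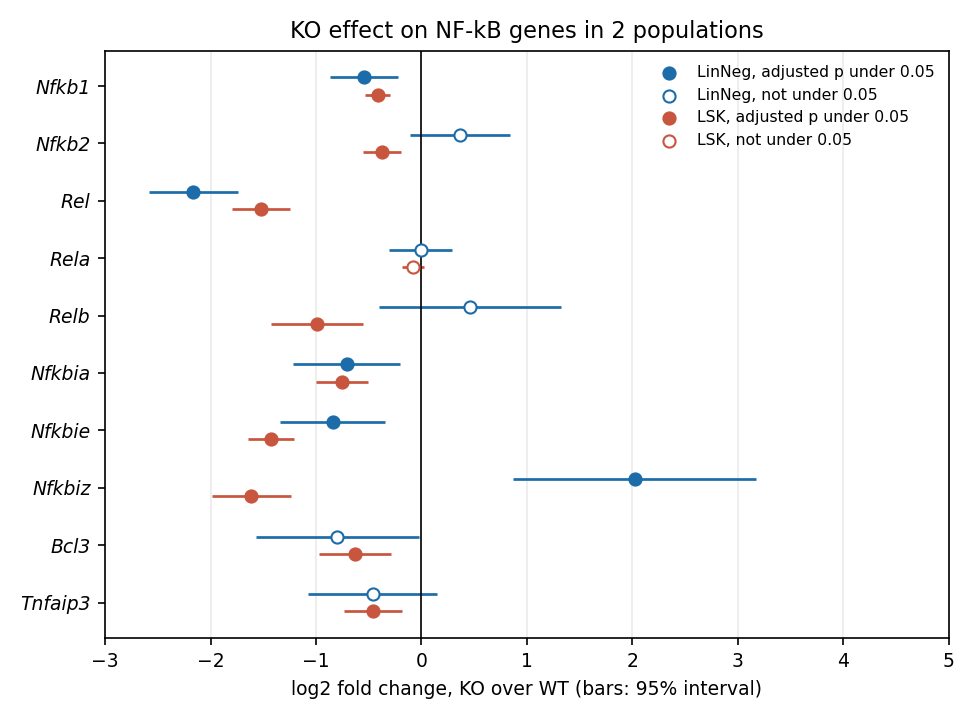
Log2 fold change of KO over WT for each gene (horizontal) in LinNeg (blue) and LSK (red), with 95% intervals as bars; filled circles have an adjusted p under 0.05. The LSK bars of 9 genes lie wholly below 0, and the LinNeg bar of Nfkbiz lies wholly above 0 and is the widest.

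Nfkbia and Nfkbie encode IkB-alpha and IkB-epsilon, cytoplasmic inhibitors that are both known targets of NF-kB. Each fell in LinNeg and in LSK. Nfkbia (ENSMUSG00000021025.8, chromosome 12 from 55489410 to 55492647, minus strand) stood in LinNeg at a derived 3034 normalized counts under WT and 1854 under KO, from the authors' deposited table. Its log2 fold changes in the authors' deposited tables were -0.71 in LinNeg (SE 0.26, DESeq2 adjusted p = 0.0178) and -0.76 in LSK (SE 0.13, DESeq2 adjusted p = 7e-09), where the derived levels were 1200.05 and 711. KO libraries held 61.1% of the WT level in LinNeg and 59.3% in LSK. The LinNeg call is lost at a threshold of 0.01.

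Nfkbie (ENSMUSG00000023947.8, chromosome 17 from 45555703 to 45563169, plus strand) had the smallest adjusted p of the 10 genes in LSK. Its derived level went from 1001 to 372 normalized counts in the authors' deposited table for LSK, a log2 fold change of -1.43 (SE 0.11, DESeq2 adjusted p = 2.13e-36). In the authors' deposited table for LinNeg it went from 1506 to 840.4, a log2 fold change of -0.84 (SE 0.26, DESeq2 adjusted p = 0.00348). The KO level was 37.2% of WT in LSK and 55.8% in LinNeg.

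Nfkbiz encodes IkB-zeta, a nuclear cofactor that is induced by interleukin-1 and Toll-like receptor signals. It was the 1 member called in opposite directions in LinNeg and LSK. It rose in LinNeg from a derived 1070 to 4342 normalized counts in the authors' deposited table, a log2 fold change of 2.02 (SE 0.59, DESeq2 adjusted p = 0.00229). In LSK it fell from 713 to 233 in the authors' deposited table, a log2 fold change of -1.61 (SE 0.19, DESeq2 adjusted p = 1.03e-16). The LinNeg interval is wide, from 1.82-fold to 9.04-fold higher. That SE was above those of 99.2% of the 4083 genes whose LinNeg mean lay within 2-fold of the mean of Nfkbiz, and the LSK SE above those of 95.1% of 3177 such genes. Values per library were not analysed here, so whether 1 library carries the LinNeg rise was not tested. Nfkbiz (ENSMUSG00000035356.17) lies on chromosome 16 from 55811375 to 55838899, minus strand.

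Bcl3, the other nuclear IkB protein, binds p50 and p52 homodimers. It fell in LSK from a derived 409 to 264 normalized counts in the authors' deposited table, a log2 fold change of -0.63 (SE 0.17, DESeq2 adjusted p = 0.000548). The LinNeg point estimate in the authors' deposited table was larger and did not pass, at -0.80 (SE 0.39, DESeq2 adjusted p = 0.0924), with derived levels of 553 and 318. Centred on the median gene, which stood at 0.16 in LinNeg, Bcl3 was at -0.95 with an adjusted p of 0.0393 by the Wald test. Centred on the median of genes with a mean of at least 100 it stayed uncalled, with an adjusted p of 0.101 by the same DESeq2-based Wald test. Bcl3 (ENSMUSG00000053175.17, chromosome 7 from 19808462 to 19822770, minus strand) overlaps exons of an antisense gene, with the same limit.

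Tnfaip3 removes and attaches ubiquitin on signalling proteins upstream of IKK and so damps the pathway. It fell in LSK from a derived 707 to 514 normalized counts in the authors' deposited table, a log2 fold change of -0.46 (SE 0.14, DESeq2 adjusted p = 0.0023). In the authors' deposited table for LinNeg the log2 fold change was also -0.46, with an SE of 0.31 and a DESeq2 adjusted p of 0.237, from derived levels of 1782 and 1293. Tnfaip3 (ENSMUSG00000019850.11) lies on chromosome 10 from 19000910 to 19015657, minus strand.

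Levels of different genes were compared per kilobase of annotated exon, within a table and label. Rela and Nfkb1 led in all 4 groups, followed by Nfkb2. Under WT in LSK, from the authors' deposited table, Rela stood at 1099 derived normalized counts per kilobase, Nfkb1 at 710, Nfkb2 at 231, Rel at 139 and Relb at 49.9. Rela made up 49.3% of that summed subunit level under WT and 57.03% under KO in LSK, and 40.9% and 46.7% in LinNeg. The share of Rel went from 6.25% to 2.66% in LSK and from 6.43% to 1.65% in LinNeg, where it dropped below Relb. These shares carry no error, since no values per library were used, and they rest on exon lengths that need not be those of the transcripts present.

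**Figure D3:**
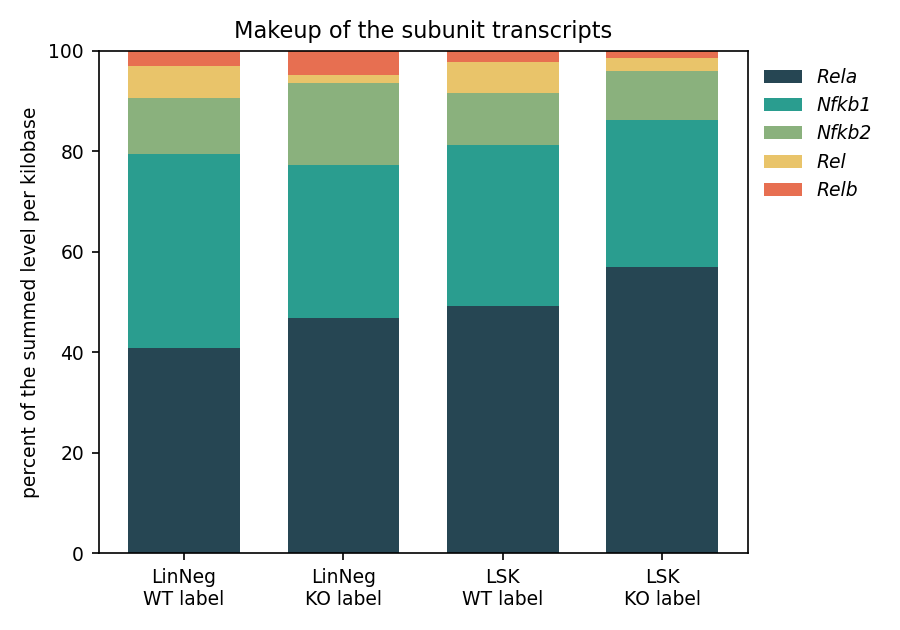
Share of each subunit in the summed derived level per kilobase of exon of the 5 subunit genes (vertical, percent) under each label and population. The Rela block is larger under KO in both populations, and the Rel block shrinks from 6.43% to 1.65% in LinNeg and from 6.25% to 2.66% in LSK.

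The difference between the populations was tested as the LSK effect minus the LinNeg effect (two-sided normal test, Benjamini-Hochberg adjustment over 15735 genes). The 2 comparisons share no library. They also differ in the BMT label, and Y-linked Ddx3y fell under KO in LSK but was not called in LinNeg. A difference between the populations therefore cannot be told apart from BMT or from sex. It passed for 4 of the 10 genes, against 31.9% of all genes. The difference for Nfkbiz was -3.63 (SE 0.62, adjusted p = 6.6e-08). For Relb it was -1.45 (SE 0.49, adjusted p = 0.0131) and for Nfkb2 -0.74 (SE 0.26, adjusted p = 0.0156). In these 3 genes the LSK effect was the lower one, against 14.5% of all genes. The fall of Rel was smaller in LSK than in LinNeg, by 0.65 (SE 0.26, adjusted p = 0.0394). The test did not pass for the other 6 genes. For Nfkbie the difference was -0.59 (interval -1.13 to -0.04, adjusted p = 0.0948). The interval for Nfkb1 ran from -0.22 to 0.47, for Rela from -0.39 to 0.25, for Nfkbia from -0.61 to 0.52, for Tnfaip3 from -0.67 to 0.67 and for Bcl3 from -0.68 to 1.01. At a threshold of 0.01 the difference was called for Nfkbiz alone, against 23.7% of all genes, 10.5% with the lower effect in LSK.

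The genes that fell in both tables were Nfkb1, Rel, Nfkbia and Nfkbie, 4 of 10, against 12.2% of the 15735 genes tested in both. A rise in LinNeg with a fall in LSK was met by Nfkbiz alone, 1 of 10, against 2.72% of genes. These shares, and those beside the test of the difference, are over all genes tested in both. Shares over genes with a mean of at least 100, as all 10 genes have, were not computed for them.

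**Figure D4:**
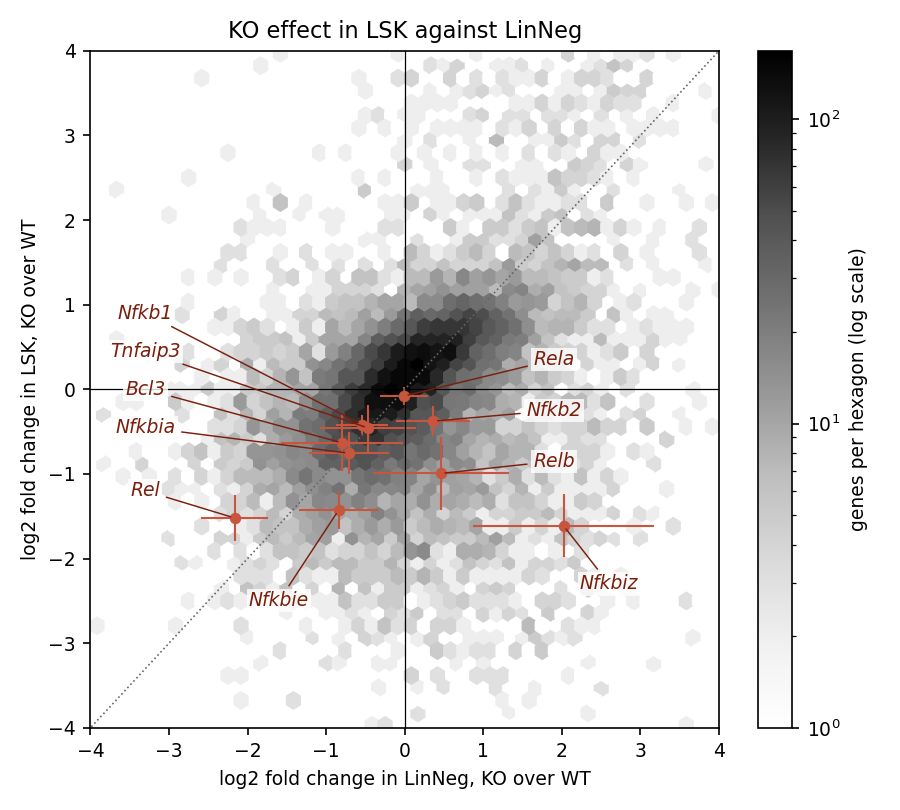
Log2 fold change of KO over WT in LinNeg (horizontal) and LSK (vertical); grey hexagons count the genes tested in both tables (1065 of 15735 lie outside the plotted range), red points are the 10 NF-kB genes with 95% intervals, and the dotted line marks equal effects. Rel and Nfkbie lie at the lower left, Nfkbiz alone at the lower right, and Rela at the crossing of the axes.

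The rest of the pathway was described from lists, whose counts stand against 41.4% of all genes called in LinNeg (19.3% lower) and 61.6% in LSK (29.2% lower). Of the other IkB proteins, Nfkbid, a nuclear one, fell in both populations, with log2 fold changes of -0.91 (SE 0.26) in LinNeg and -0.77 (SE 0.15) in LSK in the authors' deposited tables. Nfkbib, which encodes the cytoplasmic inhibitor IkB-beta, rose in LSK at 0.71 (SE 0.12, DESeq2 adjusted p = 2.55e-09) in the authors' deposited table, where no member rose. In the IKK complex, the kinase Chuk (IKK-alpha) rose in both tables, at 0.55 (SE 0.15) in LinNeg and 0.87 (SE 0.06) in LSK in the authors' deposited tables. Its partner kinase Ikbkb (IKK-beta) fell in both, at -0.88 (SE 0.12) and -0.32 (SE 0.07) in the authors' deposited tables. The scaffold Ikbkg (NEMO) fell in LSK at -0.30 (SE 0.07) and was not called in LinNeg, at -0.16 (SE 0.16), in the authors' deposited tables.

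Receptors that signal to NF-kB fell in 8 of 13 and rose in 1 of 13 in LinNeg (median log2 fold change -1.49), and fell in 8 of 13 and rose in 0 in LSK (median -0.64). The receptors lower in KO were 61.5% of the list in each table, against 26.8% in LinNeg and 36.4% in LSK among genes whose mean reaches 100. Not every receptor reaches that mean, such as Cd40 at 19.92 in LinNeg and 12.16 in LSK, so the shares were not matched for level. The TNF receptor Tnfrsf1a was at -2.28 (SE 0.18) in LinNeg and -0.76 (SE 0.09) in LSK, and Tnfrsf1b at -1.49 (SE 0.16) and -0.55 (SE 0.08), in the authors' deposited tables. Il18r1, a chain of the interleukin-18 receptor, was at -1.92 (SE 0.19) in LinNeg and -2.36 (SE 0.22) in LSK in the authors' deposited tables. The interleukin-1 receptor Il1r1 fell in LSK at -2.47 (SE 0.23) and was not called in LinNeg, at -0.38 (SE 0.36), in the authors' deposited tables. Tlr9, a sensor of microbial DNA, went in the authors' deposited table for LinNeg from a derived 862 normalized counts under WT to below 1 under KO, so that its fitted fold is not a measured ratio.

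Adaptors and upstream kinases fell in 7 and rose in 4 of 24 in LinNeg (median -0.23), and fell in 12 and rose in 6 of 24 in LSK (median -0.16). The 45.8% called in LinNeg lies near the share over all genes there, and the 75% called in LSK near the 77.2% of genes with a mean of at least 100. Map3k14, the kinase of the alternative branch, fell in both, at -1.08 (SE 0.27) in LinNeg and -1.73 (SE 0.14) in LSK in the authors' deposited tables. Map3k8, a kinase held by p105, rose 2.15-fold in LinNeg (DESeq2 adjusted p = 0.0201) and fell in LSK at -1.79 (SE 0.21) in the authors' deposited tables. Those directions were also seen in Nfkbiz, and in 2.72% of all genes tested in both. In LSK Malt1, a protease that cleaves Tnfaip3, was at -0.62 (SE 0.08) and Tab3, an adaptor of the kinase TAK1, at 0.86 (SE 0.09) in the authors' deposited table. The LinNeg falls with the smallest adjusted p in the authors' deposited table were Irak3 at -2.05 (SE 0.19), Card9 at -2.69 (SE 0.29), Irak4 at -1.04 (SE 0.17) and Bcl10 at -1.05 (SE 0.19).

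Of 21 listed ubiquitin ligases and editors 20 were tested, of which 7 fell and 1 rose in LinNeg (median -0.32), and 10 fell and 3 rose in LSK (median -0.16). The shares called, 40% in LinNeg and 65% in LSK, lie near those over all genes. They lie below the 51.8% in LinNeg and 77.2% in LSK of genes with a mean of at least 100. That mean is not reached by Tnip3 in LinNeg, at 4.97. Tnip3, a partner of Tnfaip3, had a log2 fold change of -3.69 (SE 0.19) in the authors' deposited table for LSK, from a derived 595 to 46.2 normalized counts. In LSK the ligase Birc3 was at -0.85 (SE 0.08), the deubiquitinase Cyld at -0.52 (SE 0.06) and Rnf11 at -0.67 (SE 0.08) in the authors' deposited table. In LinNeg Tax1bp1, an adaptor of Tnfaip3, was at -1.10 (SE 0.13), N4bp1 at -0.57 (SE 0.17), Itch at -0.51 (SE 0.14) and Fbxw11 at -0.47 (SE 0.13) in the authors' deposited table.

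Inflammatory targets of NF-kB moved in both directions. In LinNeg 12 fell and 8 rose of 33 (median -0.40), and in LSK 12 fell and 3 rose of 31 (median -0.09). The share called was 60.6% in LinNeg, above that of all genes, and 48.4% in LSK, below it, with no test of either. Several targets had low means in LSK and were not called, such as Il6 at 8.8, Il1b at 13.32 and Ccl2 at 5.34 normalized counts. The shares of this list were not matched for level. The cytokine Il15 fell in both, at -2.13 (SE 0.26) in LinNeg and -2.53 (SE 0.14) in LSK, and the caspase-8 regulator Cflar at -1.14 (SE 0.19) and -0.83 (SE 0.07), in the authors' deposited tables. Tnfaip2, a TNF-induced gene, rose in both, at 2.08 (SE 0.23) and 2.43 (SE 0.18) in the authors' deposited tables. The adhesion molecule Icam1 fell in both, from a derived 991 to 496 normalized counts in LinNeg (DESeq2 adjusted p = 0.000305) and from 1265 to 489 in LSK, in the authors' deposited tables. The chemokine Ccl3 also fell in both, at -1.75 (SE 0.24) in LinNeg and -1.67 (SE 0.60) in LSK in the authors' deposited tables. Its mean in LSK was low, at 30.27 normalized counts (DESeq2 adjusted p = 0.00973). The growth factor Csf1 fell in LinNeg at -1.80 (SE 0.18) and was not called in LSK, at -0.05 (SE 0.17), in the authors' deposited tables. Traf1, named after its values were seen, shared the directions of Nfkbiz, at 2.28 (SE 0.40) in LinNeg and -1.99 (SE 0.37) in LSK in the authors' deposited tables. The difference between its effects was -4.27 (SE 0.55). Those directions were met by 2.72% of all genes tested in both, and are not particular to the pathway. Also named after their values were seen, Bcl2l1 of this list (1.25 and -0.33) and the stem markers Mecom (3.56 and -2.66) and Ly6a (2.20 and -0.82) shared them in the authors' deposited tables.

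**Figure D5:**
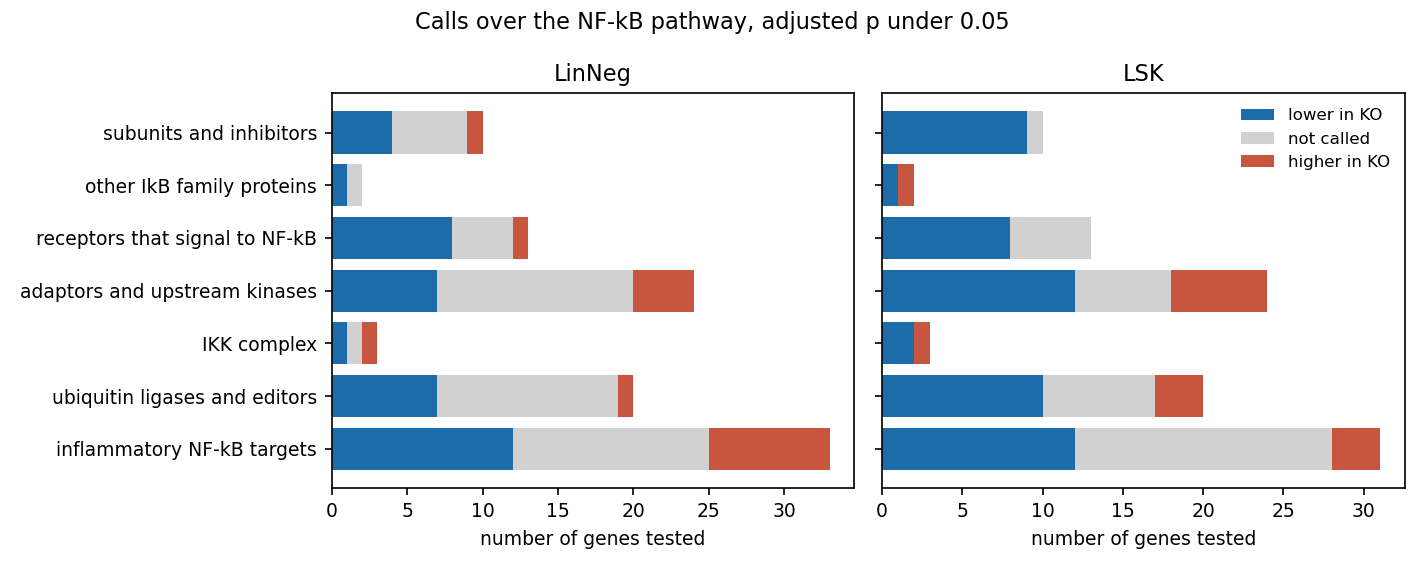
Number of genes tested in each list (horizontal) that were lower in KO (blue), not called (grey) or higher in KO (red) at an adjusted p under 0.05 in LinNeg and LSK. The subunits and inhibitors have 9 of 10 lower in LSK and 4 of 10 lower in LinNeg, and the inflammatory targets have 8 genes higher in LinNeg and 3 in LSK.

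Markers of several cell types moved with the labels, and in bulk samples fewer cells of a type and less RNA per cell cannot be told apart. Summed over the list, monocyte and dendritic cell markers went from 79775 to 6859 derived normalized counts in LinNeg (11 of 13 fell, 0 rose) and from 17861 to 7349 in LSK (4 fell, 5 rose). The LSK fall of that sum was that of Flt3, a gene also of early progenitors, which went from 11046 to 492, while the other 12 markers summed to 6814 under WT and 6856 under KO. Neutrophil granule markers went from 87589 to 4722 in LinNeg (9 of 11 fell) and from 61201 to 172457 in LSK (10 of 12 rose). Erythroid markers rose in 8 of 8 in both, to 4.81 and 7.42 times the WT sum, while the globin genes Hbb-bs and Hbb-bt were listed at 0. Stem and progenitor markers fell in 10 and rose in 1 of 12 in LSK, from 103342 to 31977, and fell in 5 and rose in 3 in LinNeg. T and NK cell markers rose in 3 of 5 and fell in 1 in LinNeg, where Cd3d and Cd3e have a fold change and no p-value, and fell in 1 of 7 in LSK. Without Nkg7 their sum went from 1140 to 4315 in LinNeg, where Lck, at 534 under WT and 1624 under KO, was not called. In LSK that sum went from 478 to 162, a fall that was that of Lck, from 416 to 95.7. B cell markers fell in 3 of 8 and 2 of 8. Endothelial and stromal markers fell in 3 and rose in 1 of 9 in both. Their sum, the largest of the marker lists in LinNeg, went there from 206147 to 121692, with Col1a1 at 114997 under WT and not called. In LSK it went from 4633 to 2588, a fall that was that of Pecam1, from 4030 to 1718. The other 8 markers summed in LSK to 603 under WT and 870 under KO. The part of these shifts in the results on NF-kB genes was not tested.

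Other facts of the series bear on every direction. U2af1 was higher under KO, at 0.65 (SE 0.19) in LinNeg and 0.61 (SE 0.06) in LSK in the authors' deposited tables, and a count over the whole gene does not check a deletion of part of it, so each direction rests on the name of the comparison. Sex-linked genes, named after their values were seen, also moved. Y-linked Ddx3y in the authors' deposited table for LSK went from a derived 2949 normalized counts under WT to 4.99 under KO and Xist from 347 to 62360, so the genotype label cannot be told apart from a difference in sex there. Xist also rose in LinNeg, from a derived 40.01 to 41468 normalized counts in the authors' deposited table (log2 fold change 10.02, SE 1.81, DESeq2 adjusted p = 2.73e-07). Ddx3y was not called in the authors' deposited table for LinNeg, at -0.79 (SE 1.64, DESeq2 adjusted p = 0.739). The part of sex in the LinNeg results was not tested. Of 10 genes often used as references, 2 rose and 3 fell in LinNeg, with log2 fold changes up to 2.38, and 7 rose and 0 fell in LSK, with log2 fold changes from 0.02 to 2.02. Both defining markers of the LSK sort were detected and both fell under KO in the authors' deposited table for LSK. Ly6a, which encodes Sca-1, went from a derived 593 to 335 normalized counts (-0.82, SE 0.12) and Kit from 28724 to 14587 (-0.98, SE 0.05). In LinNeg Ly6a rose from 605 to 2784 in the authors' deposited table, and Kit was not called, at 0.36 (SE 0.16).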

How the data were processed

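KO and WT libraries, 12 in all, were compared separately for LinNeg and LSK. The submitters' processing notes name HISAT2, SAMtools 1.10, StringTie, DESeq2 and mm10, with no role or order. How reads were assigned to genes, and on which annotation, is not given in the sources used here. Per the file headers, the authors deposited for each gene a mean of normalized counts (a linear signal), a log2 fold change and its error, also log2, a Wald statistic (a score), a p-value and an adjusted p-value.

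Each table had 24542 rows; 5 that name no gene and 4 with repeated symbols were left out. Reads without a feature made up 38.0% of summed means in LinNeg and 26.4% in LSK. A fold change with no p was found for 53 genes in LinNeg and 3 in LSK. The design preferred values of single libraries. The tables hold the authors' comparisons, so its stated fallback was used, with the authors' DESeq2 adjusted p under 0.05 as the call. The statistic multiplied by its error restored digits that rounding had removed from the fold changes. Levels under a label assume 3 libraries a side. The difference between populations was divided by its error, the square root of both variances added, and this step was tested on simulated data. The simulated noise was drawn from the same errors, so the simulation does not check whether those errors are right. Since each table has its own normalization, no test compares levels between them. Exon lengths and coordinates are from GENCODE M21.

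The members and lists were chosen with earlier results of these data known. Named were all 10 members, U2af1, and from each other list up to 4 called genes with the smallest adjusted p in each table, of which the text gives those of the pathway. Alternatives were another threshold, a fold minimum, other sets of genes for the adjustment, and recentring. Software was scipy 1.17.1, matplotlib 3.10.9, numpy 2.4.6, pandas 2.3.3 and Python 3.11.15.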

Additional observations from a re-analysis of the deposited data

Results flagged for a closer look

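The effect of the KO label differed between LSK and LinNeg by the test of the difference itself in 4 genes. The LSK effect minus the LinNeg effect was -3.63 for Nfkbiz, -1.45 for Relb, -0.74 for Nfkb2 and 0.65 for Rel on the log2 scale. Nfkbiz was called in opposite directions in the 2 tables, Relb and Nfkb2 were called in LSK alone, and Rel fell in both. Across all genes the same test passed for 31.9%, so the count of 4 of 10 lies near the background. At a threshold of 0.01 only Nfkbiz passed. Population cannot be told apart here from the BMT label of the LSK libraries or from sex.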

How the results depend on the processing

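Of 39 counts of called members recomputed under an alternative, 32 stayed within 1.5 times the reported count and 7 moved. With at least a 2-fold change asked for, 2 members were called in LinNeg, 1 of them lower (Rel) and the other higher (Nfkbiz), and 3 in LSK, 3 of them lower (Rel, Nfkbie and Nfkbiz). With a threshold of 0.01 the difference between populations was called for 1 gene, with 1 lower in LSK (Nfkbiz) and 0 higher. Of 40 recomputed fold changes of single members, 37 kept their direction and call. Bcl3 in LinNeg and Rela in LSK passed once centred on the median gene, though not when centred on genes with a mean of at least 100 (adjusted p by the DESeq2-based Wald test 0.101 and 0.0647), and Rela in LinNeg, which was not called, turned from -0.01 to 0.0082 when centred on genes with a mean of at least 100. No paired analysis was possible because the tables hold the authors' comparisons and no values per library, and for the same reason leaving out a replicate, a replicate block and a refit of counts were not run. The depth of each library is unknown.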
